A study of Danio rerio with 26 samples.

Results

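The comparison of rbm8a mutant embryos with their siblings at 27 hours post fertilization (hpf) rests on 6 of the 26 samples of the series, 3 labelled mutant and 3 labelled sibling, and was read over all 30944 genes of one deposited table. The study asked which genes depend on the exon junction complex (EJC) in the zebrafish embryo. The mutant group carries oz36, a frame-shifting deletion that CRISPR/Cas9 made early in the rbm8a coding sequence, and holds homozygous embryos from crosses between heterozygous fish of the AB background. The sibling group comes from the same crosses and mixes wild-type with heterozygous embryos, so its embryos may carry 1 mutant copy. Both groups start with maternal Rbm8a protein, received no treatment, have the same raising temperature in their labels and were collected as whole embryos, 25 to a library. At least 1 replicate was sequenced in a separate run, and the labels do not say which. They also do not say whether replicates came from separate clutches, so p-values measure only the spread between these libraries.

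Rbm8a (Y14) forms with Magoh and Eif4a3 the core of the EJC, which splicing leaves on messenger RNA just upstream of exon junctions. When a ribosome stops at a stop codon with such a complex still bound downstream, Upf1 and its partners start nonsense-mediated decay (NMD) and the RNA is degraded. Loss of EJC proteins in mice and other animals is known to lower neural progenitor number and to raise cell death.

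The level of rbm8a (ENSDARG00000016516) did not follow the labels. Levels are given as FPKM, read counts scaled by gene length and by the authors' normalization between libraries. Per-library values stand in the order of the columns: labelled mutant 1, sibling 1 and mutant 2 (the first 3), then labelled sibling 2, mutant 3 and sibling 3 (the last 3). In that order rbm8a stood at 3.69, 2.82 and 3.65 FPKM in the first 3 libraries and at 12.7, 14.4 and 10.7 FPKM in the last 3. The library labelled sibling 1 thus held the lowest level and the library labelled mutant 3 the highest. Read by place in the file, the mean was 3.39 ± 0.49 FPKM (SD, n = 3) against 12.6 ± 1.83 FPKM (SD, n = 3), without overlap, with a two-sided exact permutation p of 0.1, the smallest that 3 against 3 can give. The reading by place was taken up because of these levels, so that p restates them and is no separate evidence. Read by the labels, the mean was 7.25 ± 6.2 FPKM for mutant and 8.76 ± 5.24 FPKM for sibling (SD, n = 3 each), with an exact permutation p of 1. All genes were therefore fitted in 2 readings, by place (the first 3 columns against the last 3) and by the labels, and values below are by place unless the labels are named. Below, the first 3 and the last 3 columns are called the first set and the last set. No genotype is given to either set, and the libraries keep their labels as names only.

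**Figure D1:**
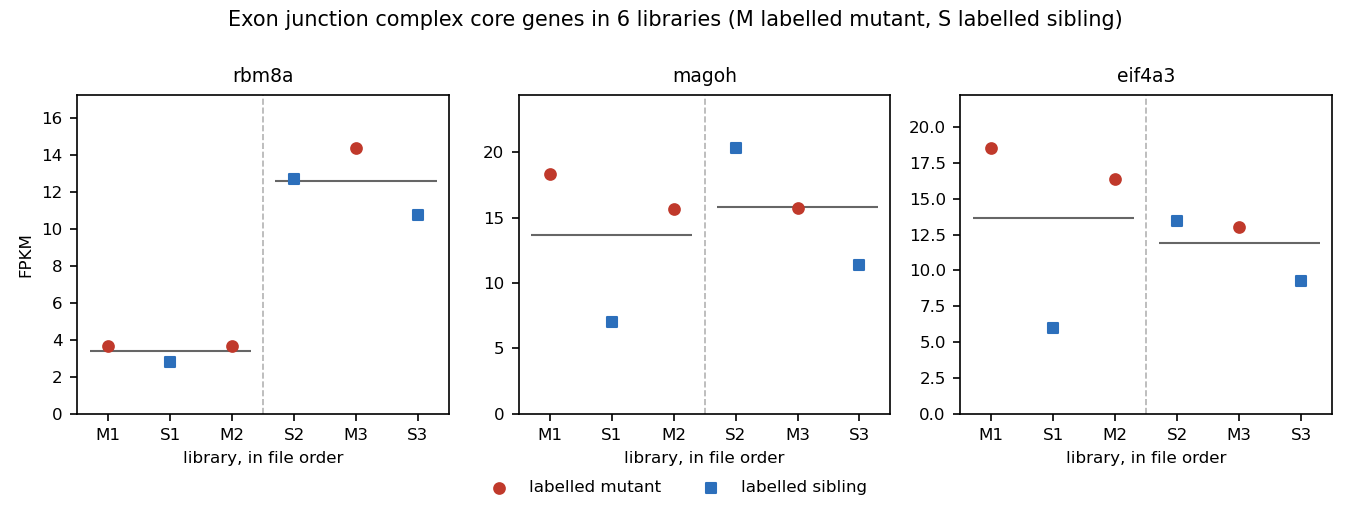
FPKM (y axis) of rbm8a, magoh and eif4a3 in each of the 6 libraries in file order (x axis; M labelled mutant, S labelled sibling), with the dashed line between the first 3 and the last 3 columns and grey lines at the mean of each set. For rbm8a the first 3 libraries lie between 2.82 and 3.69 FPKM and the last 3 between 10.7 and 14.4 FPKM, whereas magoh and eif4a3 overlap between the sets.

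The partner genes were not split in this way. Magoh, which binds Rbm8a directly, was listed at 18.3, 6.99 and 15.7 FPKM in the first 3 libraries and 20.3, 15.7 and 11.4 FPKM in the last 3. The helicase gene eif4a3, which clamps the complex on RNA, had 18.6, 5.96 and 16.4 FPKM and 13.4, 13.1 and 9.27 FPKM. In both genes the library labelled sibling 1 was lowest and the sets overlapped. Among 12 tested genes of the EJC and its partners, only rbm8a (8.33%) had sets that did not overlap. Of all genes tested, 3.19% were higher and 3.45% lower without overlap by place. Since the levels of rbm8a led to the reading by place, its division is no result about this list. The median log2 difference by place was -0.12, or 0.29 without the library labelled sibling 1. The member with the next smallest p was pnn (pinin, a peripheral EJC partner), at 5.499, 3.32 and 3.03 FPKM and 1.61, 3.198 and 1.64 FPKM, also with overlap. None of the 15 tested NMD factors was without overlap by place, with a median of 0.00. Upf1, the helicase at the centre of NMD, had 7.44, 10.04 and 6.33 FPKM against 4.49, 6.94 and 3.92 FPKM, and pnrc2, a decapping adaptor, 23.7, 9.17 and 27.1 FPKM against 28.4, 35.5 and 24.5 FPKM.

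Depth differed between libraries. Reads recovered from the steps of the FPKM values numbered 63225296, 64578852 and 26271231 in the first 3 libraries and 9193992, 9296710 and 95877745 in the last 3. The shallowest libraries, labelled sibling 2 and mutant 3, thus both lay in the last set, as did the deepest, labelled sibling 3. By the labels the shallowest libraries fell in different groups. The part of depth in the differences by place was not tested. FPKM summed over all genes differed as well, at 6486819, 2329160 and 3978678 in the first 3 libraries and 5071635, 6040931 and 1665064 in the last 3. The rbm8a levels rest on 89 reads in the library labelled mutant 3 and on 1881 in that labelled sibling 3. Pairs of libraries correlated at 0.934 to 0.975 over log2(FPKM + 1) of the genes tested. The library labelled sibling 1 stood apart: 54 genes were at least 4-fold above all the others there, against 2 to 11 in each of the other libraries. Genes at least 4-fold below all the others were most numerous in the library labelled sibling 2, with 47, followed by 23 in mutant 2, and 1 gene was so in sibling 1. The labels give whole embryos, and the summed levels of marker genes of neurons, muscle, epidermis, heart, vessels, blood, pigment cells and yolk were above 0 in each library.

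No gene was called in the main fit of either reading. A gene was tested where at least 3 libraries reached 0.5 FPKM, which 28845 genes did, and was called at an adjusted p under 0.05 with at least a 1.5-fold difference. By place limma called 0 genes (0%) higher and 0 (0%) lower in the first 3 libraries, with a smallest adjusted p of 0.132. At an unadjusted p under 0.05 there were 1139 genes, 708 (2.45%) higher and 431 (1.49%) lower in the first 3. Levels of 919 genes (3.19%) were higher in each of the first 3 libraries than in any of the last 3, and levels of 995 genes (3.45%) were lower. Separation alone is weak evidence for a gene, since with 3 against 3 its two-sided exact permutation p is 0.1. At least 1.5-fold differences without overlap numbered 247 higher (0.856%) and 136 lower (0.471%). Leaving out the library labelled sibling 1 left 0 genes called and moved the unadjusted count to 5684, and leaving out the library labelled sibling 3 moved it to 2494. With columns 1 and 4, 2 and 5, and 3 and 6 as blocks, a fit chosen after seeing the data, 31 genes were called, 28 higher and 3 lower. Phlda3 and cdkn1a were among them, and the others were 5S rRNA copies, clone-named or LOC loci and genes with an ID alone. The deviations of those column pairs correlated at 0.276, 0.0355 and 0.357, and those of the other pairs at -0.414 to 0.233. For each of the first 3 columns the pair of the same rank correlated highest. Of the last 3 this held for columns 4 and 6, whereas column 5 correlated higher with column 1 (0.233) than with column 2 (0.0355). Whether these columns are paired samples was not tested. Since the block was chosen after seeing the data, it was kept as an alternative to the main fit. The genes lower without overlap were the more weakly expressed, with a median of 1.15 FPKM over all 6 libraries against 2.52 FPKM for those higher, and 81.1% of them lay under 2 FPKM. In what follows, log2 differences are fitted on log2(FPKM + 1), first 3 minus last 3 by place, and all are short of the threshold for a call without that block.

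The NMD targets that the study names were the list with the highest share of members divided by place. Of 13 tested genes named as NMD targets, 8 (61.5%) were higher in each of the first 3 libraries than in any of the last 3, against 3.19% of all genes, and none was lower. The median log2 difference of this list was 0.75, against 0.01 over all genes. The study chose these genes in part on these samples, so their direction is not independent evidence. The list's mean lay at 0.68 and 0.67 relative to its mean over the 6 libraries in the libraries labelled mutant 1 and mutant 2, and at -0.40 to -0.47 in the last 3, on the log2 scale. In the library labelled sibling 1 it was close to that mean, at -0.07.

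Phlda3 (ENSDARG00000037804), a gene encoding a small protein with a pleckstrin homology domain, was at 11.7, 4.45 and 10.5 FPKM in the first 3 libraries and 1.496, 0.5098 and 1.25 FPKM in the last 3. Its log2 difference was 2.02 (SE 0.25), with a limma adjusted p of 0.168. Foxo3b (ENSDARG00000042904), a forkhead transcription factor gene, was at 11.4, 4.63 and 12.5 FPKM and 2.05, 2.17 and 1.72 FPKM, a difference of 1.57 (SE 0.24), limma adjusted p 0.33. In both genes all of the first 3 libraries lay above all of the last 3, and the library labelled sibling 1 was the lowest of the first 3. The pro-apoptotic BH3-only gene bbc3 (Puma) had 4.16, 2.04 and 4.75 FPKM against 0.722, 0.876 and 1.46 FPKM, a log2 difference of 1.04 (SE 0.19). Gadd45aa, a growth arrest and DNA damage gene, had 4.54, 2.88 and 4.503 FPKM against 1.25, 0.605 and 1.63 FPKM, with a difference of 1.13 (SE 0.22). For isg15, a ubiquitin-like protein of the interferon response, the values were 1.65, 1.82 and 1.95 FPKM and 0, 0.133 and 0.694 FPKM. They rest on 80, 185 and 59 reads in the first 3 libraries, and on 0, 1 and 148 reads in the last 3.

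The other named targets without overlap were closer together. Phlda2, a paralogue of phlda3, was at 9.02, 4.21 and 9.32 FPKM and 3.27, 2.97 and 2.02 FPKM, with a log2 difference of 1.02 (SE 0.26). Gtpbp1l, a GTP-binding protein gene, was at 3.93, 2.23 and 3.92 FPKM and 1.69, 1.16 and 1.404 FPKM, a difference of 0.75 (SE 0.19). The cyclin-dependent kinase inhibitor gene cdkn1ba (p27) had 5.73, 2.61 and 4.04 FPKM against 1.33, 2.12 and 2.13 FPKM, a difference of 0.73 (SE 0.24). In gtpbp1l and cdkn1ba the library labelled sibling 1 lay just above the highest of the last 3.

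Overlap between the sets was seen in the splicing factor genes, whose RNAs are classic NMD substrates through poison exons in mammals. Srsf3a had 2.52, 1.26 and 3.87 FPKM and 1.95, 2.91 and 2.21 FPKM in the row with measurable values, and srsf7a had 14.98, 5.37 and 13.7 FPKM and 10.99, 10.9 and 8.94 FPKM. Eif4a2, a translation initiation helicase gene, was at 6.84, 2.57 and 7.05 FPKM and 3.7, 3.89 and 3.53 FPKM. Neither atxn1b, at 2.94, 3.57 and 3.37 and 3.64, 3.47 and 2.16 FPKM, nor upb1 (beta-ureidopropionase, of pyrimidine breakdown), at 3.23, 1.46 and 1.92 and 1.84, 1.12 and 1.52 FPKM, was divided. Mob4, a gene of the STRIPAK phosphatase complex that is no NMD target and served the study as its control transcript, had 9.41, 4.17 and 5.82 FPKM and 4.83, 4.78 and 4.58 FPKM. Nupr1a was not matched to the table and is not analysed here.

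Among genes of cell death and growth arrest, casp8 was divided in the same direction. Casp8 (ENSDARG00000058325), an initiator caspase gene, had 6.63, 3.47 and 9.27 FPKM against 1.99, 1.63 and 1.47 FPKM, a difference of 1.25 (SE 0.22).

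Further genes of growth arrest and the damage response, chosen after their values were seen, were also higher in all of the first 3 libraries. Cdkn1a, the p21 cell cycle inhibitor, was at 10.1, 3.56 and 7.498 FPKM and 2.04, 0.995 and 1.44 FPKM (log2 difference 1.49, SE 0.27). The most abundant of them, ccng1 (cyclin G1), was at 169.7, 69.1 and 199 FPKM and 33.5, 38.1 and 27.8 FPKM (difference 1.80, SE 0.40). The sestrin genes, which link damage to growth control, followed: sesn3 at 11.97, 7.54 and 19.3 FPKM and 2.69, 4.74 and 3.902 FPKM (difference 1.34, SE 0.29), and sesn1 at 3.26, 6.46 and 3.74 FPKM and 2.098, 2.46 and 2.31 FPKM (difference 0.79, SE 0.21). In sesn1 alone among these 4 genes the library labelled sibling 1 was the highest of all 6.

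**Figure D2:**
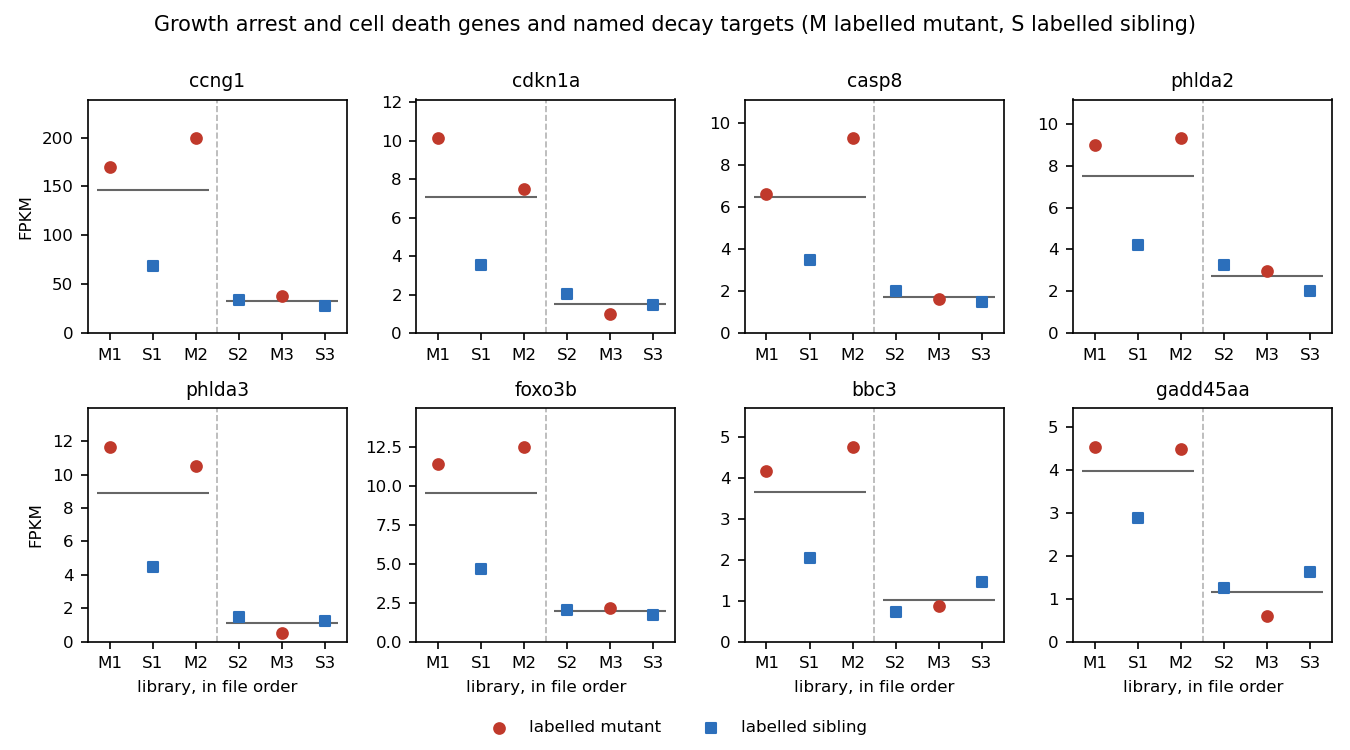
FPKM (y axis, linear, from 0) of 8 growth arrest and cell death genes and named NMD targets in each library in file order (x axis; M labelled mutant, S labelled sibling); the dashed line parts the first 3 columns from the last 3 and grey lines are means of 3 libraries. In each gene the first 3 libraries lie above the last 3, as for ccng1 with 69.1 to 199 FPKM against 27.8 to 38.1 FPKM, and the library labelled sibling 1 is the lowest of the first 3.

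Cell death genes as a whole were not divided. Here and below, members named because their libraries did not overlap were chosen after their values were seen, and the others are the members of smallest p in their list. Of 33 apoptosis genes 2 (casp8 and bbc3) were higher and 2 lower without overlap (6.06% each, against 3.19% and 3.45% of all genes), with a median of -0.01. The lower pair were the survival gene bcl2a, at 1.401, 1.13 and 0.926 FPKM and 1.79, 1.49 and 2.19 FPKM, and the BH3-only gene bmf1, at 1.802, 1.43 and 1.66 FPKM and 2.703, 2.68 and 1.96 FPKM. Among 5 forkhead O genes foxo3b stood higher, foxo4 lower by a narrow margin at 1.699, 1.54 and 1.73 FPKM and 1.74, 2.29 and 1.96 FPKM, and foxo3a, the paralogue of foxo3b, overlapped at 3.99, 2.17 and 5.25 FPKM and 2.08, 2.47 and 2.84 FPKM. Autophagy and atrophy genes, which FoxO factors activate in mammalian muscle, held 0 members higher and 3 of 22 lower (13.6%, against 3.45% of all genes), by narrow margins. They were klf15, a metabolic transcription factor gene, at 1.73, 1.51 and 1.896 FPKM and 2.199, 2.15 and 2.19 FPKM, the mitophagy receptor gene bnip3lb, at 1.28, 1.34 and 1.296 FPKM and 1.59, 2.53 and 1.36 FPKM, and map1lc3a, which encodes an autophagosome coat protein, at 0.886, 0.893 and 0.548 FPKM and 1.39, 0.903 and 1.05 FPKM. The 2 of smallest p there overlapped, ulk1a (an autophagy kinase) at 3.52, 28.04 and 1.89 FPKM and 7.21, 8.44 and 2.48 FPKM and atg12 at 1.56, 1.105 and 0.336 FPKM and 1.34, 2.71 and 2.18 FPKM.

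Stress programmes were mixed. Genes of the integrated stress response had 2 of 27 members higher and 2 lower by place (7.41% each, against 3.19% and 3.45% of all genes), median 0.04. Ddit4, a stress-induced inhibitor of growth signalling, was at 9.05, 9.46 and 21.1 FPKM and 4.73, 5.67 and 8.18 FPKM, and phgdh, the first enzyme of serine synthesis, was at 5.76, 2.79 and 4.53 FPKM and 7.11, 7.54 and 6.35 FPKM. Interferon response genes had 2 of 21 higher (9.52%, against 3.19% of all genes), isg15 and, by less than the digits given here can show, the signal transducer stat2. Immediate early genes, which respond to signals within minutes, had 4 of 34 higher (11.8%, against 3.19% of all genes) and 1 lower, and by the labels 7 higher (20.6%, against 10.5%). Fosab (c-Fos) was at 2.84, 2.19 and 2.06 FPKM and 0.462, 1.78 and 0.343 FPKM, while myca overlapped with 10.96, 44.3 and 8.86 FPKM and 8.36, 12.8 and 5.98 FPKM, the library labelled sibling 1 standing highest. Eif4ebp1, an inhibitor of translation initiation, was the other higher member of the stress response list, at 12.7, 8.28 and 9.51 FPKM and 6.196, 8.16 and 3.92 FPKM. Cytosolic heat shock proteins had no member without overlap by place (median 0.23 over 25), and ER chaperones 1 of 25, the collagen chaperone serpinh1a at 11.7, 6.02 and 12.1 FPKM and 5.92, 5.95 and 4.89 FPKM.

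The genes of smallest p by place were clone-named loci, for which no function is given here. Among them, si:dkey-90a24.1, si:dkey-85n7.7, si:ch211-92l17.1, si:dkey-117j14.6 and si:rp71-1d10.6, were chosen after their values were seen. The first of them was at 10.5, 6.05 and 10.4 FPKM against 1.06, 1.41 and 1.76 FPKM (log2 difference 1.92, SE 0.21, limma adjusted p 0.132) and the last at 6.62, 5.03 and 9.22 FPKM against 1.28, 1.06 and 1.34 FPKM. Whether these loci are copies that share reads was not tested. LOC108190448 had 16.7, 6.7 and 16.7 FPKM against 2.36, 1.64 and 1.68 FPKM, a difference of 2.07 (SE 0.25). Mir458, a microRNA gene, was listed at 0.904, 1.59 and 1.45 FPKM and at 0 in each of the last 3 libraries, and rests on 3, 11 and 3 reads.

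Annotated genes near the top, again chosen after their values were seen, included a ubiquitin ligase of the DNA break response, rnf169, at 6.42, 3.04 and 6.78 FPKM and 1.07, 1.35 and 1.34 FPKM (log2 difference 1.33, SE 0.20). Fsta, encoding the activin antagonist follistatin, was at 8.85, 5.79 and 12.3 FPKM and 2.07, 2.44 and 2.53 FPKM (difference 1.41, SE 0.22). Both genes were higher in all of the first 3 libraries. In the opposite direction, ncapg2, a condensin subunit gene, was at 1.11, 1.145 and 1.47 FPKM and 2.696, 2.37 and 2.73 FPKM (difference -0.71, SE 0.18), so that its sets did not overlap. BIRC5, a homologue of the apoptosis inhibitor survivin, was set by 1 library: it was at 3.19, 228 and 2.97 FPKM and 4.36, 3.71 and 2.601 FPKM, and its fitted difference of 2.57 (SE 0.47) became -0.08 without the library labelled sibling 1.

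Few muscle genes were divided by place, and they lay in both directions. In whole embryos fewer cells of a type and less RNA per cell cannot be told apart. Of 36 fast muscle genes 3 were higher (8.33%, against 3.19% of all genes) and 2 lower (5.56%, against 3.45%) in the first 3 libraries. The list median was -0.07, or 0.28 without the library labelled sibling 1. The summed level of 4 fast muscle markers was 314, 182 and 415 FPKM in the first 3 libraries and 213, 289 and 261 FPKM in the last 3, with overlap. Mylpfb, a fast myosin regulatory light chain gene, was at 10.8, 5.59 and 8.02 FPKM against 17.8, 25.7 and 13.8 FPKM, a log2 difference of -1.18 (SE 0.35), limma adjusted p 0.995. Pvalb4, a calcium-buffering parvalbumin gene, was at 2.85, 2.36 and 3.501 FPKM and 4.62, 10.1 and 3.698 FPKM. The fast myosin heavy chain genes lay on the other side or overlapped: myha was at 66.1, 85.1 and 91.9 FPKM and 50.05, 58.2 and 60.8 FPKM, and myhz2 at 81.4, 57.6 and 114 FPKM and 55.9, 66.6 and 73.6 FPKM. Myhz1.1 and myhz1.2 were the other higher members, myhz1.1 at 98.02, 86.9 and 131 FPKM and 58.5, 74.3 and 84.8 FPKM. Myl10, another light chain gene, overlapped at 70.06, 28.5 and 78.3 FPKM and 59.8, 61.2 and 45.5 FPKM. The myosin heavy chain genes are close copies of each other, so reads may be split between them.

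Slow muscle genes had no member without overlap by place among 16 (median 0.03), tnnc1b, a slow troponin, being at 9.17, 4.07 and 10.9 FPKM and 9.73, 11.3 and 7.74 FPKM. Myogenic regulators had 1 of 16 higher (6.25%, against 3.19% of all genes), mef2d, at 3.94, 2.89 and 5.36 FPKM and 2.48, 2.52 and 2.68 FPKM. Heart genes had 1 of 13 higher (7.69%), the cardiac transcription factor gata5 at 2.57, 2.79 and 2.41 FPKM and 2.04, 2.36 and 1.52 FPKM. Segmentation genes of the presomitic mesoderm had 1 of 19 lower (5.26%, against 3.45% of all genes) and 0 higher. The lower member, the growth factor gene fgf8a, was at 0.651, 0.724 and 0.739 FPKM and 0.819, 0.948 and 0.849 FPKM. Notochord and cartilage genes had 1 of 19 higher (5.26%) and 2 lower (10.5%), with twist2, a mesenchymal transcription factor, at 1.11, 1.02 and 0.828 FPKM and 1.92, 1.73 and 1.55 FPKM. Collagens had 1 higher and 1 lower of 54 (1.85% each, under the shares of all genes), col8a1a being higher at 8.0, 9.18 and 12.7 FPKM against 5.802, 5.85 and 5.54 FPKM.

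Neural lists had few divided members. Differentiated neuron genes had 3 of 45 lower (6.67%, against 3.45% of all genes) and 0 higher, with a median of -0.06. Stmn1b, a stathmin that destabilizes microtubules, was at 3.77, 2.23 and 3.19 FPKM and 7.14, 6.65 and 4.61 FPKM (log2 difference -0.85, SE 0.26). Rgs17, a regulator of G protein signalling, was at 0.6102, 0.611 and 1.01 FPKM and 1.44, 2.03 and 1.196 FPKM (difference -0.56, SE 0.20). Sypb, a synaptic vesicle protein gene, was at 0.945, 0.904 and 0.492 FPKM and 1.28, 1.13 and 1.153 FPKM. The summed level of 4 neuron markers was 24.7, 14.8 and 20.2 FPKM and 16.7, 18.2 and 12.8 FPKM, with overlap. The other 3 neural genes that the study names overlapped between the sets: st8sia5, a ganglioside sialyltransferase gene, at 1.83, 7.28 and 1.06 FPKM and 3.68, 3.68 and 5.91 FPKM, lnx2b, a ubiquitin ligase gene, at 2.13, 6.91 and 2.63 and 7.57, 4.87 and 2.65 FPKM, and camk4, a calcium-dependent kinase gene, at 3.31, 15.4 and 2.35 and 12.4, 5.16 and 2.29 FPKM. The library labelled sibling 1 was the highest of all in st8sia5 and camk4. By the labels st8sia5 was lower without overlap, as were 9.92% of all genes (log2 difference -1.04, SE 0.31, limma adjusted p 0.326). Camk4 (-0.84) and lnx2b (-0.53) were also below 0 by the labels and rgs17 (0.09) was above, all with overlap.

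Neural progenitor genes had 1 of 31 higher (3.23%) and 2 lower (6.45%), against 3.19% and 3.45% of all genes. Gfap, the radial glia filament gene, was at 7.19, 3.06 and 7.05 FPKM and 9.58, 11.6 and 7.79 FPKM (log2 difference -0.82, SE 0.29), and sox1b, a progenitor transcription factor, was the higher one at 4.29, 6.04 and 3.07 FPKM and 2.802, 2.904 and 2.81 FPKM. Atoh1a, which specifies hindbrain and hair cell precursors, was lower at 0.332, 0.4002 and 0.185 FPKM and 0.803, 0.558 and 0.926 FPKM. Motor neuron genes had 1 of 16 lower, ache (acetylcholinesterase) at 1.44, 1.44 and 1.67 FPKM and 1.75, 1.74 and 1.95 FPKM, and 0 higher (median 0.02). Eye and forebrain genes had 1 of 29 lower, the retinal homeobox gene rx2, at 0.982, 0.799 and 0.795 FPKM and 1.32, 1.07 and 1.13 FPKM. Of 47 lens crystallins 4 (8.51%) were lower without overlap against 3.45% of all genes, only 4 had a difference above 0, and the median was -0.42. Their levels were low, as for crygmx at 0.526, 0.557 and 0.133 FPKM and 1.39, 1.07 and 0.846 FPKM. Relative to its mean over all libraries, on the log2 scale, the list mean was at -0.12, 0.14 and -0.72 and at 0.47, 0.43 and -0.19, with overlap. It was highest in the libraries labelled sibling 2 and mutant 3, which had the fewest reads, and lowest in that labelled mutant 2. Without the library labelled mutant 2 the median was -0.25. Transmitter receptors had 5 of 148 lower and ion channels 6 of 164, near the 3.45% of all genes, and 3 ion channels (1.83%) were higher. Neural crest and pigment genes had 1 of 23 higher, kita, a receptor of melanophores, at 1.93, 1.86 and 1.501 FPKM and 1.36, 1.06 and 1.27 FPKM.

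Few blood genes were divided. Of 17 primitive erythroid genes 3 were lower (17.6%, against 3.45% of all genes) and 1 higher, with a median of -0.38 that became -0.12 without the library labelled sibling 1. Alas2, the first enzyme of haem synthesis in red cells, was at 1.98, 1.35 and 1.89 FPKM and 2.87, 3.13 and 2.31 FPKM, and slc4a1a, the red cell anion exchanger, was at 1.82, 2.68 and 2.35 FPKM and 3.68, 5.74 and 3.198 FPKM. Uros, a later enzyme of haem synthesis, was at 1.33, 1.88 and 1.85 FPKM and 3.69, 2.298 and 2.52 FPKM. The higher member was tal1, which specifies blood precursors, at 3.72, 3.73 and 3.27 FPKM and 2.33, 2.92 and 2.83 FPKM. The summed level of the 2 red cell markers in the table was 3.4, 3.36 and 4.6 FPKM and 4.62, 5.74 and 4 FPKM, with overlap. Of 19 leukocyte genes 2 were lower (10.5%) and 1 higher (5.26%), against 3.45% and 3.19% of all genes. Lyz, the lysozyme of myeloid cells, was at 1.87, 1.74 and 2.37 FPKM and 4.56, 5.03 and 3.02 FPKM (log2 difference -0.80, SE 0.24), and mmp9, a secreted protease gene, at 0.735, 0.693 and 0.648 FPKM and 0.752, 0.774 and 0.901 FPKM, whereas spi1a, a myeloid transcription factor gene, was at 10.3, 12.3 and 20.1 FPKM and 7.898, 7.16 and 9.84 FPKM. Endothelial genes had 1 of 14 lower (7.14%), fli1a at 2.71, 3.09 and 2.77 FPKM and 3.35, 3.93 and 3.11 FPKM.

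Surface and yolk genes had few divided members. By place, 3.19% of all genes were higher and 3.45% lower without overlap. Epidermal genes had 1 of 26 higher, the adhesion gene cdh1 (E-cadherin), at 9.32, 8.56 and 9.11 FPKM and 6.72, 5.85 and 5.04 FPKM. The ionocyte and hatching gland list also had 1 of 19, foxi1, a forkhead transcription factor gene, at 4.61, 1.93 and 3.86 FPKM and 0.64, 1.39 and 1.07 FPKM (log2 difference 1.00, SE 0.23). Yolk and endoderm genes had 2 of 27 higher (7.41%), the vitellogenins vtg1 and vtg7, and 1 lower (3.7%), vtg3. Vtg1 was at 1.48, 1.67 and 1.31 FPKM and 0.997, 0.462 and 0.974 FPKM, and vtg3 at 0.359, 0.599 and 0.227 FPKM and 0.728, 0.773 and 0.684 FPKM. Vtg1 and vtg7 are close copies, so the split of reads between them is uncertain. Hox genes had 2 of 47 lower (4.26%), such as hoxa9b at 1.79, 1.72 and 1.38 FPKM and 2.98, 2.23 and 2.89 FPKM. Insulin-like growth factor genes had 1 of 19, igf2a, an embryonic growth factor gene, at 5.75, 2.75 and 6.34 FPKM and 1.88, 1.597 and 1.42 FPKM (log2 difference 1.00, SE 0.21).

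**Figure D3:**
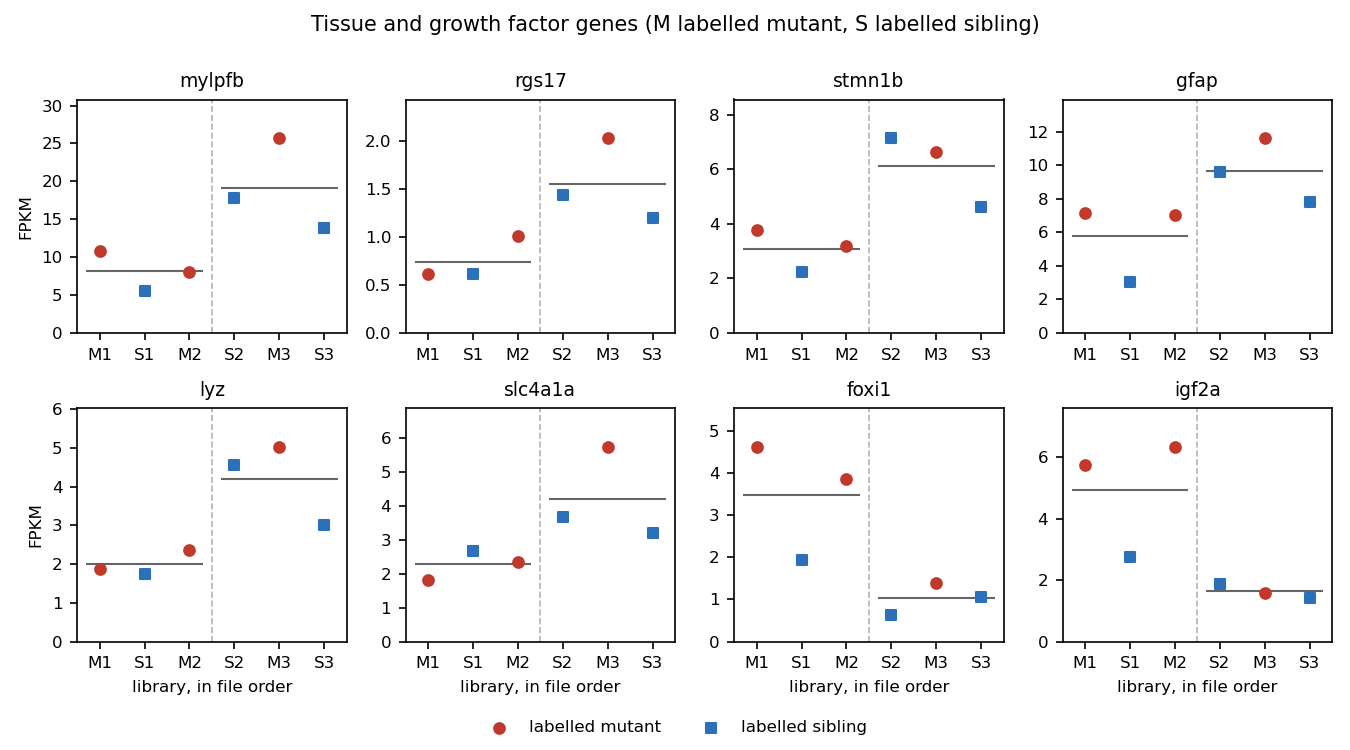
FPKM (y axis, linear, from 0) of 8 tissue and growth factor genes in each library in file order (x axis; M labelled mutant, S labelled sibling), drawn as for the growth arrest genes. Mylpfb, rgs17, stmn1b, gfap, lyz and slc4a1a lie lower in all of the first 3 libraries (lyz at 1.74 to 2.37 FPKM against 3.02 to 5.03 FPKM), and foxi1 and igf2a lie higher.

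Zinc finger genes with a znf symbol were the largest list with a one-sided division by place. Of 249 tested, 29 (11.6%) were higher in each of the first 3 libraries against 3.19% of all genes, 1 was lower, and 192 had a difference above 0 (median 0.18). By the labels the same list was one-sided too, with 46 (18.5%) higher against 10.5% of all genes, 5 lower, 190 above 0 and a median of 0.22. The list medians were small, and single members differed more. By place znf1162 was at 3.82, 5.69 and 3.64 FPKM and 2.65, 2.603 and 2.34 FPKM (log2 difference 0.66, SE 0.19). Znf1184 was at 2.64, 2.53 and 3.23 FPKM and 1.154, 0.607 and 1.801 FPKM (difference 0.78, SE 0.23). Many of these genes lie in families of similar copies, whose reads cannot be told apart with certainty.

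Genes of general cell growth were not divided by place, and the library labelled sibling 1 set the sign of their medians. Cytosolic ribosomal protein genes had 0 of 76 without overlap by place and a median of -0.35, which became 0.43 without the library labelled sibling 1. Relative to the mean of all 6 libraries, their mean was at -1.07 in that library and at -0.48 in the library labelled sibling 3, on the log2 scale. Rps28, a small ribosomal subunit gene, was at 43.5, 12.6 and 37.1 FPKM and 56.6, 55.8 and 31.8 FPKM. Replication and mitosis genes (0 of 37, median -0.31, 0.10 without sibling 1) and histones (0 of 14, median -0.18, 0.05 without sibling 1) had the same switch of sign. By place, the medians of 17 of the 48 lists lay on the other side of 0 without the library labelled sibling 1.

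Splicing and protein turnover lists had few divided members by place, where 3.19% of all genes were higher and 3.45% lower. SR splicing factors had 0 of 17 and a median of -0.11 (0.27 without the library labelled sibling 1), and spliceosome genes 1 of 49 (eftud2, a U5 GTPase, higher at 7.25, 5.65 and 6.04 FPKM against 4.38, 4.98 and 3.76 FPKM). Mitochondrial ribosomal proteins had 1 higher and 2 lower of 73, and proteasome subunits 1 lower of 43. The chaperonin CCT and the tRNA synthetases had no member without overlap among 8 and 20. Metabolic and clock lists had few as well: circadian clock 0 of 31, sterol synthesis 1 lower of 23, and glycolysis and hypoxia 1 higher and 2 lower of 41. Msmo1, an enzyme of cholesterol synthesis, was at 0.706, 0.5701 and 0.212 FPKM and 0.819, 1.04 and 1.02 FPKM. Hk2 (hexokinase 2) was the higher glycolytic gene, at 2.27, 3.44 and 2.36 FPKM and 1.34, 1.695 and 1.94 FPKM.

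**Figure D4:**
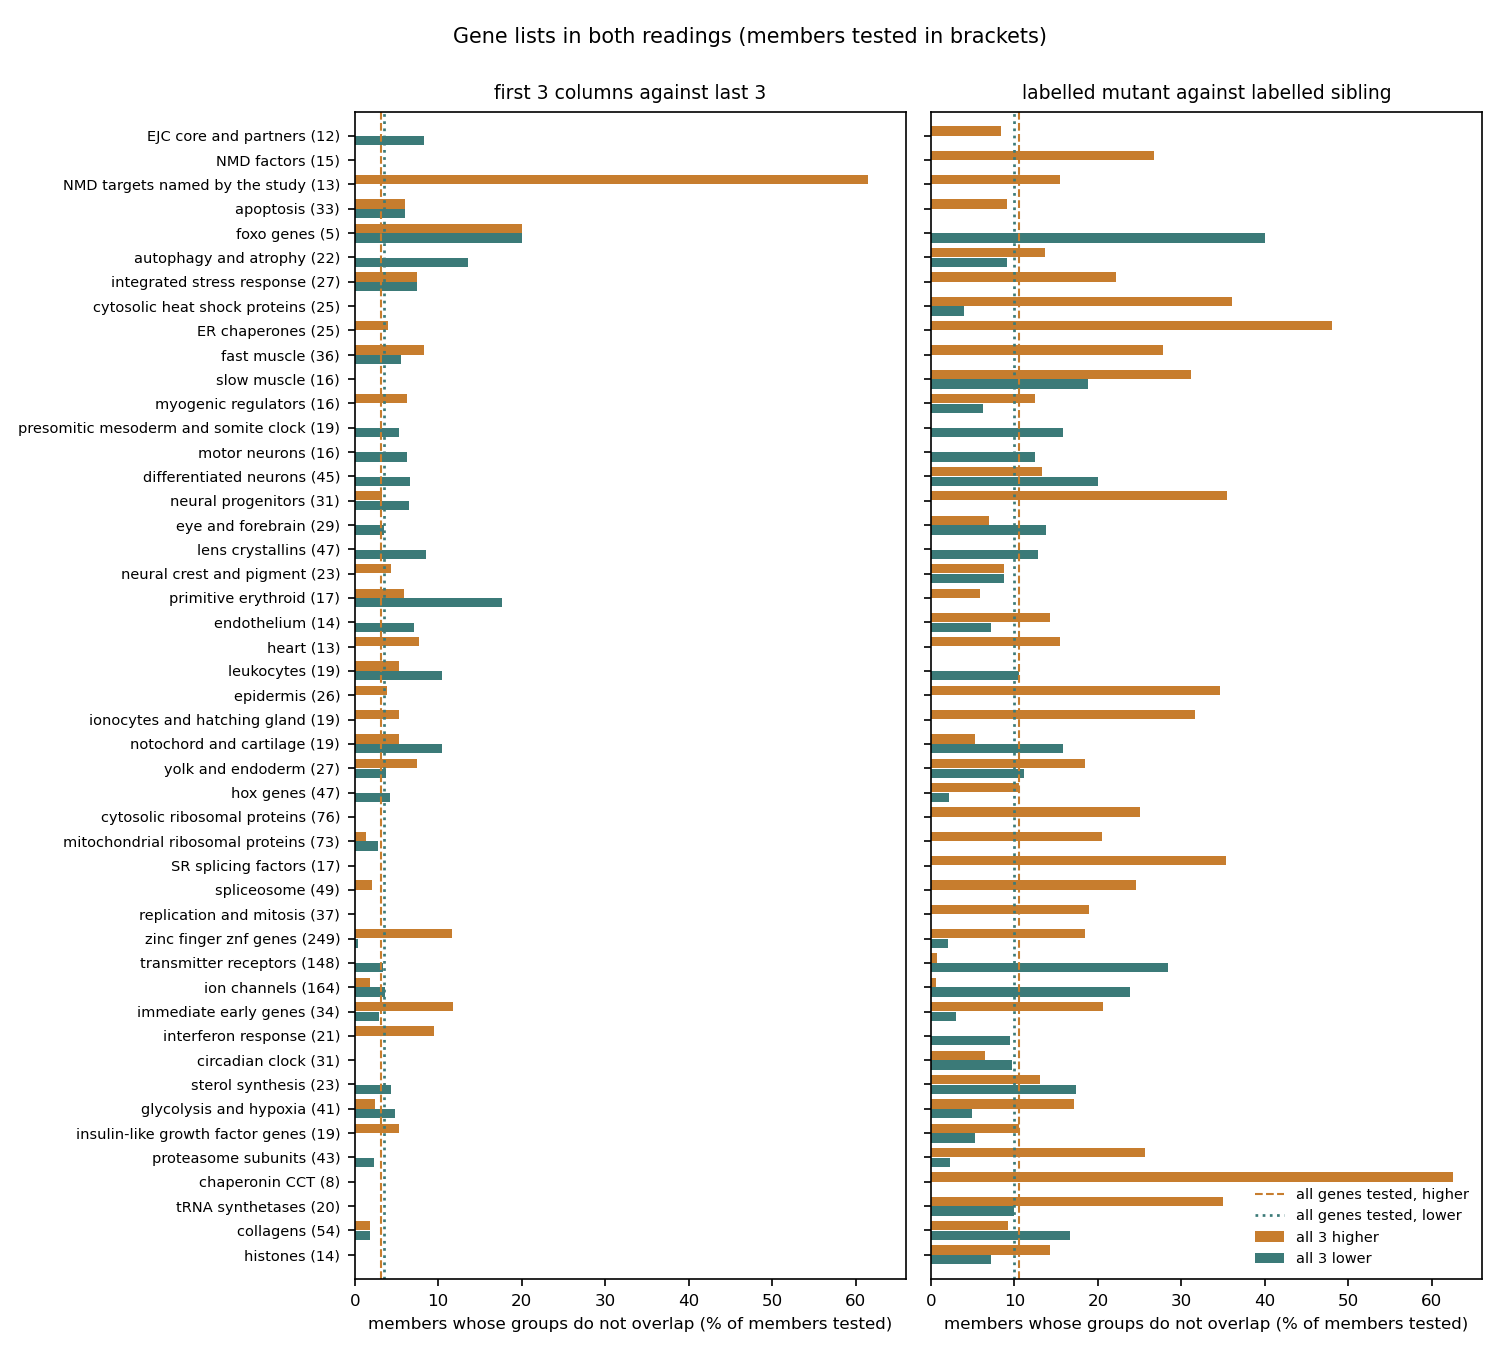
Share of each gene list whose levels did not overlap between the groups (x axis, percent of members tested; y axis, list with the number tested), by place on the left and by the labels on the right; orange bars are members higher and teal bars members lower in the first 3 libraries or in those labelled mutant, and the vertical lines give all genes tested. By place the named NMD targets reach 61.5% against 3.19%, and by the labels the chaperonin CCT reaches 62.5% and ER chaperones 48% against 10.5%.

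Read by the labels, the libraries labelled mutant differed from those labelled sibling in more genes in the main fit, and in other ones. Limma called 0 genes (0%) higher and 0 (0%) lower, with a smallest adjusted p of 0.113, and 4283 genes had an unadjusted p under 0.05, 1792 (6.21%) higher and 2491 (8.64%) lower. Levels of 3025 genes (10.5%) were higher in every library labelled mutant and those of 2860 (9.92%) were lower. The larger count at an unadjusted p under 0.05 depended on single libraries. Without the library labelled sibling 1 there were 2906 such genes by the labels and 5684 by place, and without sibling 3 there were 1698 and 2494. With each of the other libraries left out the count by the labels stayed the larger. The count of calls depended on the fit: 580 genes were called without the library labelled sibling 2, 378 higher and 202 lower, 32 with 2 factors of unwanted variation and 3 with a minimum of 2 FPKM. Most of the 32 had an ID alone, and many of those shared a limma adjusted p of 0.00338 and log2 differences of 3.66 to 3.85. Ribosomal RNA and microRNA genes were also among the 32. Whether these loci are copies that share reads was not examined. The genes lower by the labels were weakly expressed, with a median of 0.865 FPKM over all 6 libraries, against 4.65 FPKM for the genes higher and 2.03 FPKM for all genes tested.

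By the labels the medians of 35 of the 48 lists lay above 0. Chaperone lists had the highest shares of members higher without overlap. ER chaperones were higher without overlap in 12 of 25 (48%, median 0.53) against 10.5% of all genes, cytosolic heat shock proteins in 9 of 25 (36%) and the chaperonin CCT in 5 of 8 (62.5%). Hspa5 (BiP), the main chaperone of the endoplasmic reticulum, had 33.6, 17.9 and 20.8 FPKM under the labels mutant 1, 2 and 3 and 12.8, 10.9 and 4.88 FPKM under the labels sibling 1, 2 and 3, a log2 difference of 1.37 (SE 0.38), limma adjusted p 0.323. Serpinh1b, a collagen chaperone gene, was at 18.9, 20.7 and 31.3 FPKM and 13.4, 7.79 and 6.43 FPKM, a difference of 1.36 (SE 0.33). Both were lowest in the library labelled sibling 3. Genes named here for the reading by the labels were chosen after their values were seen. Cytosolic ribosomal proteins were higher in 19 of 76 (25%) with a median of 0.82, and 75 had a difference above 0. That median was 0.38 after quantile normalization and 0.45 without the library labelled sibling 1. Rps13 was at 273, 215 and 257 FPKM and 75.4, 215 and 118 FPKM, and cct2, a chaperonin subunit gene, at 88.6, 58.4 and 56.8 FPKM and 21.9, 56.3 and 25.7 FPKM. SR splicing factors (35.3%), proteasome subunits (25.6%), tRNA synthetases (35%), neural progenitors (35.5%), epidermis (34.6%), ionocytes and hatching gland (31.6%), slow muscle (31.2%) and fast muscle (27.8%) also lay above 10.5%. Slow muscle went both ways, with 3 of 16 lower (18.8%). NMD factors were higher in 4 of 15 (26.7%), among them smg1, the kinase of Upf1, at 3.25, 3.75 and 3.31 FPKM and 2.405, 2.78 and 2.803 FPKM. Sox2, a neural progenitor transcription factor gene, was at 9.63, 7.35 and 9.51 FPKM and 4.104, 6.63 and 6.06 FPKM.

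Channels and receptors were the lists with the most members lower by the labels. Transmitter receptors were lower without overlap in 42 of 148 (28.4%, median -0.34) against 9.92% of all genes, and ion channels in 39 of 164 (23.8%, median -0.32). Gabrr1, a GABA receptor subunit gene, had 0.3795, 1.17 and 0.392 FPKM under the label mutant and 1.21, 2.11 and 2.43 FPKM under the label sibling, and kcnh3, a potassium channel gene, at 0.514, 0.521 and 1.105 FPKM and 2.58, 1.86 and 1.51 FPKM. Differentiated neurons (20%) and collagens (16.7%) also lay above 9.92%, although 6 of 45 neuron genes (13.3%) were higher. The highest share was among forkhead O genes, with 2 of 5 lower (40%), 0 higher and a median of 0.09. Other small lists also lay above 9.92%, such as sterol synthesis (17.4% lower, 13% higher) and presomitic mesoderm (15.8% lower, 0 higher). The libraries labelled sibling 1 and sibling 3 lay highest in both the receptor and the channel list and lowest in ribosomal proteins and CCT. Reads in those libraries numbered 64578852 and 95877745, against 9193992 in the library labelled sibling 2. FPKM summed over all genes was also lowest in the libraries labelled sibling 1 and sibling 3, at 2329160 and 1665064. The part of depth, of summed FPKM or of a single library in these list differences was not tested.

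Low-level genes led the reading by the labels, and were chosen after their values were seen. Camk2n1b, an inhibitor of calmodulin kinase II, had 0.7705, 1.23 and 0.497 FPKM under the label mutant and 3.76, 3.43 and 6.17 FPKM under the label sibling (log2 difference -1.63, SE 0.18, limma adjusted p 0.113). The camk2n1b values rest on 10, 10 and 1 reads under the label mutant and on 102, 8 and 352 under the label sibling. Crygm2f, a lens gamma crystallin gene, was at 0.3197, 0.256 and 0 FPKM and 2.104, 2.003 and 2.002 FPKM (difference -1.38, SE 0.16). Its values rest on 8, 4 and 0 reads and on 110, 9 and 220 reads. The microRNA genes MIR129-2 and mir129-1b were listed at 0 in every library labelled mutant and at 1.76, 2.04 and 1.42 FPKM for the former and 1.73, 2.01 and 1.32 FPKM for the latter under the label sibling. In the library labelled sibling 2 each of the 2 values rests on 1 read, and their likeness leaves the split of reads between them uncertain.

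The growth arrest genes and named NMD targets described as divided by place overlapped by the labels. Ccng1 had 169.7, 199 and 38.1 FPKM under the label mutant and 69.1, 33.5 and 27.8 FPKM under the label sibling, with the library labelled mutant 3 below that labelled sibling 1. All of the named NMD targets tested had a fitted difference above 0 by the labels, with a median of 0.60 (0.28 without the library labelled sibling 3 and 0.91 without mutant 3). Of these 13 genes 2 (15.4%, against 10.5% of all genes) were higher without overlap, srsf3a and eif4a2. The fitted difference of rbm8a by the labels was -0.22 (SE 0.58), against -1.66 (SE 0.25) by place.

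**Figure D5:**
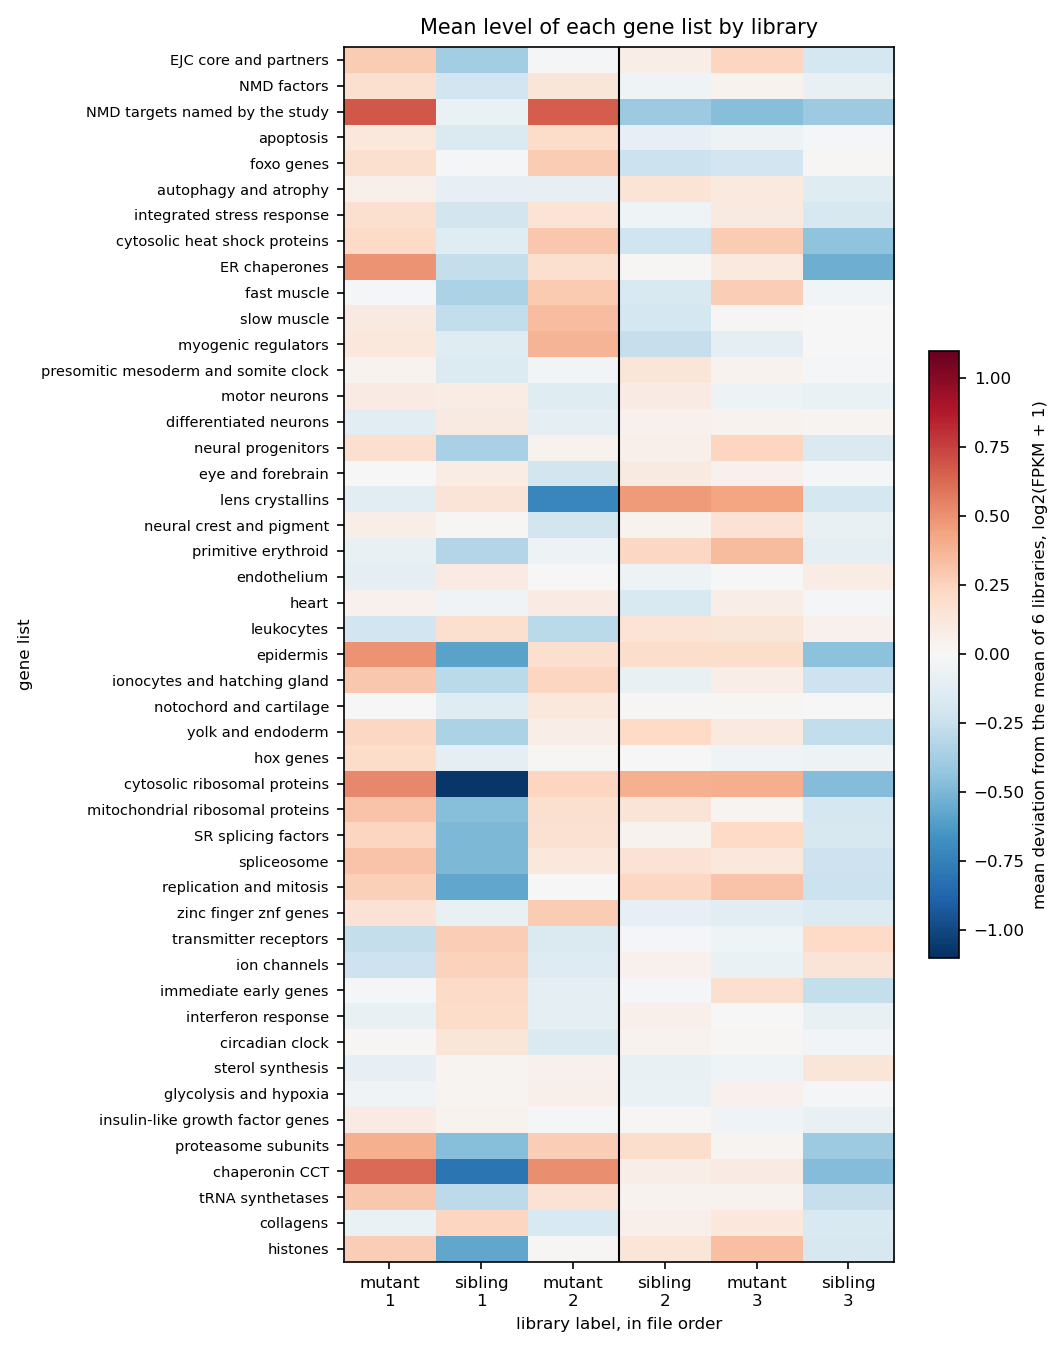
Mean deviation of each gene list (y axis) from its mean over the 6 libraries, on log2(FPKM + 1), in each library in file order (x axis; the black line parts the first 3 from the last 3; red is above and blue below the mean). The named NMD targets are at 0.68, -0.07 and 0.67 in the first 3 libraries and at -0.40, -0.47 and -0.40 in the last 3, and cytosolic ribosomal proteins are at -1.07 in the library labelled sibling 1.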

How the data were processed

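Total RNA from 6 libraries of 25 pooled whole embryos each was depleted of ribosomal RNA and sequenced as strand-specific single-end reads. According to the submitters' processing notes and the study's methods, reads were trimmed with cutadapt (1.16 in the notes, a later version in the methods), mapped to GRCz10 with TopHat2 2.0.14 and counted per gene with GenomicAlignments. The authors deposited FPKM values per library, scaled between libraries in DESeq2, and a signal column, the mean normalized count over the 6 libraries, used here only to recover reads. FPKM steps came out as whole reads, within 0.05, for 100% of values under 200 reads. The table's columns of fold change, its error, test statistic and p-values hold the authors' own comparison and were not used. The number of columns of values tied to no sample was 0.

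Genes with at least 0.5 FPKM in at least 3 libraries were tested on log2(FPKM + 1) with limma 3.58.1 in R 4.3.3, with 1 factor of unwanted variation estimated from replicates by the RUVs scheme that the study used. The study's number of factors is not given in the sources used here. A call needed a Benjamini-Hochberg adjusted p under 0.05 over all genes tested and a 1.5-fold difference. The test was checked on simulated data, with noise scaled down from the spread of the real genes. The check therefore does not show how the test performs at the spread of these libraries. Groups followed the labels in one reading and column place in the other, since rbm8a levels did not follow the labels. Symbols came from the table for 21773 genes and from a gene name table for 5246 more, and 3925 kept their ID. Named genes were those that the study names, called genes by size of difference (of which there were none), and up to 2 members of smallest p by place in each of 48 gene lists. Further genes were named after their values were seen. They include members without overlap, growth arrest genes, genes near the top by place and genes given for the reading by the labels. Members and lists were chosen with earlier results of these data known. Alternatives were another pseudocount, filters, numbers of factors, quantile normalization, no fold threshold, a replicate block and each library left out. A block over columns of the same rank was added after seeing the data. Figures were drawn with matplotlib 3.10.9 in Python 3.11.15. Some genes and 1 of the lists are not reported here.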

Additional observations from a re-analysis of the deposited data

How the results depend on the processing

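By place, limma called 31 genes (28 higher, 3 lower, smallest adjusted p 0.0148) with columns of the same rank as replicate blocks, an alternative chosen after seeing the data, and 0 genes under each of the others, with smallest adjusted p from 0.0743 (at least 2 FPKM in 3 libraries) to 0.999 (without the library labelled mutant 2) and 610 to 5684 genes at an unadjusted p under 0.05. By the labels, calls numbered 3 (0 higher, 3 lower, smallest adjusted p 0.0411) with at least 2 FPKM, 32 (25 higher, 7 lower) with 2 factors of unwanted variation, and 0 to 580 when each library was left out in turn, 580 being without the library labelled sibling 2. The cause was not tested. The other alternatives, fitted without a factor, without a filter, with a pseudocount of 0.25, with quantile normalization or without the fold threshold, gave 0 calls in both readings. The rbm8a difference by place stayed between -1.871 and -1.495. By the labels the rbm8a difference in mean log2(FPKM + 1), taken without a factor, ranged from -0.868 to 0.053 when each library was left out. Its fitted difference ranged from -0.848 to 0.373, being 0.081 without the library labelled mutant 1, 0.097 without sibling 2 and 0.373 without sibling 3. BIRC5 by place ranged from -0.079, without the library labelled sibling 1 where its level was 228 FPKM, to 3.344 without mutant 1. With the replicate number as a block, the reading by the labels had 0 calls, 1844 genes at an unadjusted p under 0.05 and an rbm8a difference of -0.29. Same-numbered libraries deviated in opposite directions (correlations -0.172, -0.319 and -0.454), so the numbers were not taken to pair the samples. Without the library labelled sibling 1, the medians of 17 of 48 lists by place lay on the other side of 0. The libraries labelled sibling 2 and mutant 3 had the fewest reads, 9193992 and 9296710, and the most genes listed at 0, 1061 and 1254. At 63225296 and 64578852 reads, the libraries labelled mutant 1 and sibling 1 listed 332 and 55 genes at 0. The part of depth in these zeros was not tested.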
